A study of Mus musculus with 38 samples.

Results

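The genes described here are the cyclins, kinase, inhibitors and Myc factors of the G1 phase, 10 of the 23481 genes in the bulk table. They were taken by name, and all were present in every kind of file: the D-type cyclins Ccnd1, Ccnd2 and Ccnd3, the E-type cyclins Ccne1 and Ccne2, the kinase gene Cdk6, the Cip/Kip inhibitors Cdkn1a and Cdkn1b, and Myc and Mycn. D-type cyclins bind CDK4 or CDK6 and start the phosphorylation of RB, which otherwise holds back the E2F factors. Cyclin E with CDK2 completes that step and brings the cell into S phase, and p21 and p27, the products of Cdkn1a and Cdkn1b, bind and inhibit these kinases. Myc and Mycn are transcription factors that promote growth and entry into the cycle. Embryonic stem cells are known for a short G1 phase with low levels of D-type cyclins, which lengthens as they differentiate.

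The cells were E14 mouse embryonic stem cells (mESCs), kept in the pluripotent state in 2i/L, a medium with 1 µM MEK inhibitor, 3 µM GSK3 inhibitor and 1000 U/ml LIF. Differentiation was carried out in N2B27 medium with neither inhibitor and without LIF, in the presence of 0.25 µM all-trans retinoic acid (RA), with the medium renewed at 48 h. Bulk RNA-seq covered 2 mESC libraries and 1 culture each at 6, 12, 24, 36, 48, 60, 72, 84 and 96 h. At 96 h, ectoderm-like cells (CD24+ and PDGFRA-) and XEN-like cells (PDGFRA+ and CD24-, resembling extraembryonic endoderm) were sorted, with 2 libraries of each that the labels call biological replicates. Each sorted population was also grown on in N2B27 with 20 ng/ml EGF and 10 ng/ml FGF2, the ectoderm-like cells for 5 passages as attached cells and the XEN-like cells for 3 weeks, in the end as floating aggregates. At 48 h, PDGFRA- cells were sorted into 4 bins of CD24 staining (Q1 to Q4, low to high), and at 72 h into 3 bins (T1 to T3), with 1 further library of PDGFRA+/CD24- cells. Single cells were profiled by SCRB-seq at 9 times (0 to 96 h) and by SMART-seq2 at 4 times (0 to 48 h), from 1 culture per time. All cells came from 1 cell line. Only mESCs and the sorted populations had 2 libraries. The study's methods speak of biological replicates for all 3 of these conditions, without saying how the cultures were separated, and p-values measure the spread between these samples.

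The bulk files count unique molecular identifiers (UMIs), short random tags that keep copies of 1 molecule from being counted more than once, and the 25 bulk libraries held 1063830 to 2459483 UMIs. Levels are given in CPM, the UMIs of a gene scaled to a common library total, with exact Poisson 95% intervals where shown, and these cover counting error only. Of 12 pluripotency markers, 11 were lower in sorted ectoderm-like cells than in mESCs and 12 in XEN-like cells. All 11 ectoderm markers were higher in ectoderm-like cells and all 11 XEN markers in XEN-like cells, and both lists also separated these populations from each other (edgeR's quasi-likelihood test, Benjamini-Hochberg adjusted p under 0.05). Against mESCs, 8 of the 11 XEN markers were also higher in ectoderm-like cells, and 3 of the 11 ectoderm markers in XEN-like cells. Pluripotency markers summed to 6267 and 4524 CPM in the XEN-like libraries and to 790 and 432 CPM in the ectoderm-like ones. The second ectoderm-like library stood apart in its XEN markers, which summed to 1779 CPM against 485 CPM in the first and 6665 and 12049 CPM in the XEN-like libraries. Pdgfra was at 36.8 CPM in it and at 3.33 CPM in the first. In bulk samples, fewer cells of a type and less RNA per cell cannot be told apart.

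The D-type cyclins were followed first. The 3 genes lie on different chromosomes (GRCm38, GENCODE M21 annotation): Ccnd1 at chr7:144929931-144939925 on the minus strand, Ccnd2 at chr6:127125162-127152193 on the minus strand and Ccnd3 at chr17:47505051-47599691 on the plus strand. Their coding regions, of 885, 867 and 876 bases, open alike. Each encodes close to its start the LxCxE motif through which D-type cyclins bind RB, and the first 45 coding bases from GENCODE M21 are shown to place this shared motif in the 3 genes. Capitals mark the codons of the motif, from base 13 of Ccnd1 and base 7 of Ccnd2 and Ccnd3.
Ccnd1: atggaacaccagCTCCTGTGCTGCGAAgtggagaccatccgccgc
Ccnd2: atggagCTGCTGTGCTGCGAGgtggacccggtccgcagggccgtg
Ccnd3: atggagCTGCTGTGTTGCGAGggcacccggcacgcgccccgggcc
No stretch of 31 bases was shared between the annotated transcripts of any pair of the 10 genes.

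Ccnd2 was the D-type cyclin that was near absent in mESCs and abundant late in differentiation. It was counted with 2 UMIs in the first and 1 UMI in the second mESC library, that is 0.87 and 0.44 CPM. It then stood at 12.2 CPM at 6 h, 16.3 at 12 h, 8.97 at 24 h and 3.63 at 36 h. From 48 h the values were 29.3, 169, 238, 240 and 201 CPM. All time points thus lay above both mESC libraries, in 2 steps: a low first one between 6 and 24 h, and a second one from 48 h on that was highest at 72 and 84 h. The 6 h level rested on 25 UMIs against 3 in both mESC libraries together, a ratio of 18.7 with a counting interval of 5.70 to 96.6. At 36 h the ratio was 5.54 (6 UMIs, interval 1.18 to 34.3), so that the dip between the steps rests on few molecules. By 96 h it was 307 (interval 104 to 1495). By a rule that asks for at least 2 times the higher mESC library at a time point and all later ones, Ccnd2 started at 6 h, and it did so with a factor of 1.5 or 3 as well.

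Ccnd1 followed a different course. It was at 48.6 and 55.7 CPM in mESCs, 50.8 at 6 h, 44.1 at 12 h, 37.9 at 24 h and 23 at 36 h. Later values were 27.6, 36.0, 76.3, 73.1 and 59.4 CPM at 48, 60, 72, 84 and 96 h. Its low point at 36 h was 0.441 times the mESC level (counting interval 0.305 to 0.623), and at 72 and 84 h it lay above both mESC libraries in CPM. Scaling library sizes by TMM moved the median of all genes by -0.40 and -0.36 on the log2 scale at these times. The size of the Ccnd1 rise thus depends on the scale. Its level at 96 h was 1.14 times that of mESCs (interval 0.905 to 1.43), a ratio that was 0.87 with TMM scaling. Ccnd1 met the start rule at no time.

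For Ccnd3, the mESC libraries differed from each other, with 54.2 CPM in the first and 21.3 in the second. The gene stood at 76.8 CPM at 6 h and 70.5 at 12 h, and at 21 to 41.5 CPM in every library from 24 h to 96 h. The 6 h and 12 h libraries were thus above both mESC libraries, and the later ones lay between them or, at 60 h, just under the second. Ccnd2 supplied 0.84% and 0.56% of all D-type cyclin UMIs in the mESC libraries and 8.74% at 6 h, whereas at 96 h its share was 66.6% (Clopper-Pearson 95% interval 62.6 to 70.4%).

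**Figure D1:**
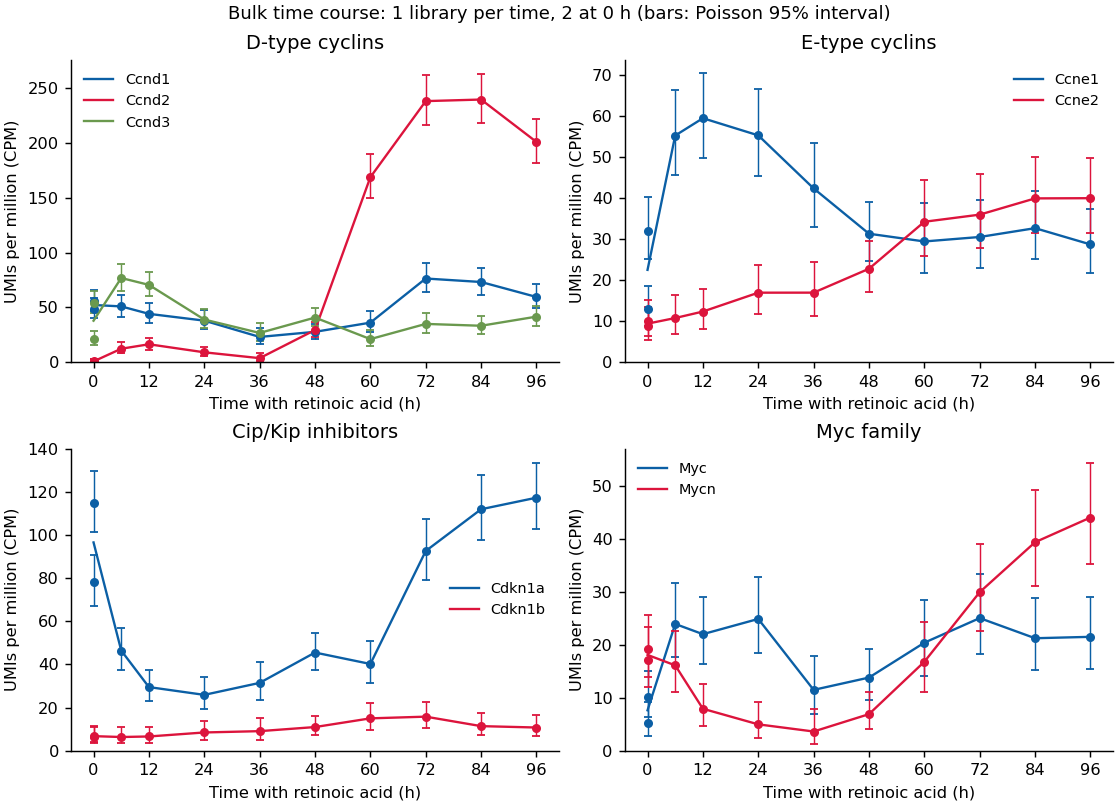
Levels of 9 of the 10 genes (CPM, vertical axes) against hours with RA, with 1 library per time and 2 at 0 h. Points are libraries, bars are exact Poisson 95% intervals and lines join the values (the mean at 0 h). Ccnd2 lies at 12.2 CPM at 6 h and at 238 CPM at 72 h, Ccnd1, Cdkn1a and Mycn are lowest between 24 and 36 h, and Ccne1 is highest at 12 h.

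Of the E-type cyclins, Ccne1 (chr7:38097984-38107534, minus strand) was highest early and Ccne2 (chr4:11191351-11204779, plus strand) late. Ccne1 was at 31.9 and 13.1 CPM in mESCs, between 55.2 and 59.5 CPM from 6 to 24 h, at 42.4 at 36 h, and between 28.7 and 32.7 CPM from 48 h on. The 6 h to 36 h libraries were above both mESC libraries, and from 48 h on the values stayed close to that of the first. Ccne2 was at 10.1 and 8.71 CPM in mESCs, 10.8 at 6 h, 12.3 at 12 h, 16.9 at 24 h and at 36 h, 22.8 at 48 h and 34.2 to 39.97 CPM from 60 to 96 h. Every time point with RA held more Ccne2 than either mESC library, and at 96 h its level was 4.26 times theirs (interval 2.90 to 6.33). The start rule placed Ccne2 at 48 h, at 24 h with a factor of 1.5 and at 60 h with a factor of 3.

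Cdk6 (chr5:3341485-3531008, plus strand), the kinase partner of D-type cyclins beside CDK4, was hardly counted. The mESC libraries counted 13 and 8 UMIs of it and the other 23 bulk libraries 0 to 5, with 0 at 36 and 48 h. At 96 h it stood at 0.224 times the mESC level, on 2 UMIs (interval 0.0254 to 0.915). At this depth no finer difference was detectable, and Cdk6 was too low to enter the test of the sorted populations.

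Cdkn1a (chr17:29090976-29100727, plus strand) encodes p21, a target of p53. Its level was 78.3 and 115 CPM in mESCs, 46.4 at 6 h, 29.5 at 12 h, 25.9 at 24 h, 31.5 at 36 h, 45.5 at 48 h and 40.2 at 60 h. It was back at 92.6, 112 and 117 CPM at 72, 84 and 96 h. The libraries from 6 to 60 h all lay under both mESC libraries, and those from 72 h on within or just above their range. At 24 h the intervals of its level, 19.3 to 34 CPM, and of the lower mESC library, 67.3 to 90.7 CPM, were apart. The 96 h level was 1.21 times that of mESCs in CPM and 0.93 times with TMM scaling, so that no direction is given for it. Cdkn1b (chr6:134920401-134925513, plus strand), which encodes p27, was at 6.56 and 6.96 CPM in mESCs and between 6.36 and 15.8 CPM over the time course, highest at 72 h. These values rest on 13 to 29 UMIs per library, and Cdkn1b met the start rule only with a factor of 1.5, at 48 h.

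The 2 Myc genes took opposite courses in the first day. Myc (chr15:61985391-61990374, plus strand) was at 10.1 and 5.22 CPM in mESCs, between 22 and 24.9 CPM from 6 to 24 h, at 11.5 at 36 h and 13.8 at 48 h, and between 20.4 and 25.1 CPM from 60 h on. Mycn (chr12:12936093-12941914, minus strand) was at 17.1 and 19.2 CPM in mESCs, 16.1 at 6 h, 7.93 at 12 h, 4.98 at 24 h, 3.63 at 36 h and 6.91 at 48 h. It then stood at 16.8, 29.97, 39.4 and 44.1 CPM at 60, 72, 84 and 96 h. All time points with RA held more Myc than either mESC library, with 36 h the closest to them. Mycn was under both mESC libraries from 6 to 60 h and above both from 72 h. Its 36 h level was 0.201 times that of mESCs (interval 0.0715 to 0.455), and its 96 h level 2.43 times (interval 1.78 to 3.33). The start rule placed Myc at 60 h and Mycn at 84 h, or at 72 h with a factor of 1.5, and neither gene met it with a factor of 3.

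The members' ratios were read against those of all genes. A gene was called where its ratio to the mESC level was at least 2 or at most 0.5 and its larger library group held 50 UMIs or more, a minimum that low genes such as Ccnd2 pass only where they are high. At 6 h, 2 of the 5 members that passed it were called higher, Ccnd3 and Ccne1, against 1.53% of all genes, and 1 lower, Cdkn1a, against 3.98%. All 3 calls rested on the second mESC library, since none was made without it. At 36 h, 0 of 5 were higher, against 5.41% of all genes, and 3 were lower, Ccnd1, Cdkn1a and Mycn, against 10.7%. At 96 h, 3 of 7 were higher, Ccnd2, Ccne2 and Mycn, against 17.6%, and 0 lower, against 10.1%. With TMM scaling the ratio of Mycn at 96 h was 1.87 and 2 members were called higher. The mESC libraries compared with each other in the same way gave 0 of 4 members higher in the second, against 4.58% of all genes, and 2 lower, Ccnd3 and Ccne1, against 4.33%. For these 2 genes the distance between the mESC libraries was therefore as large as a call. Their ratios at 6 h, 2.03 for Ccnd3 and 2.46 for Ccne1, stand beside ratios of 0.393 and 0.409 between the second and the first mESC library. Scaling by TMM in place of the library total moved the median of all genes by -0.07 to -0.40 on the log2 scale over the time points.

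For SCRB-seq, a well was taken as a cell above 2000 UMIs. This left 2448 of 3456 wells, with 137 to 335 cells per time and a median of 3559.5 to 5069 UMIs. Levels are UMIs per 10000 over all cells of a time. Gapdh, as a gene that every cell uses, lay between 14.3 and 22.7. Each time was 1 culture on 1 plate of 384 wells, with the same well names on all plates, so cells are not replicates and no test was run.

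The second step of Ccnd2 was seen in these cells as well. Its level was 0.0106, 0.0463, 0.0417, 0.0326 and 0.0164 UMIs per 10000 at 0, 6, 12, 24 and 36 h, and 0.362, 1.90, 5.48 and 3.82 at 48, 60, 72 and 96 h. The share of cells with a Ccnd2 UMI was 0.71% at 0 h (2 of 282 cells, Clopper-Pearson 95% interval 0.086 to 2.54%), 11.9% at 48 h, 41% at 60 h, 60.4% at 72 h (53.9 to 66.7%) and 52.6% at 96 h. After thinning every cell to 2000 UMIs these shares were 0.36%, 5.05%, 24.9%, 44.3% and 34.3%. The early step was small in these cells: 11 of 335 cells held a UMI at 6 h, with an interval of 1.65 to 5.80% that overlapped the 0 h interval, and 4 of 334 at 36 h.

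Ccnd1 stood at 0.456 UMIs per 10000 at 0 h, 0.737 at 6 h, 0.746 at 12 h, 0.535 at 24 h, 0.115 at 36 h, 0.275 at 48 h and 0.296 at 60 h. It then reached 1.15 at 72 h and 1.11 at 96 h. The intervals at 6 h (0.636 to 0.849) and 12 h (0.629 to 0.879) lay above that of 0 h (0.365 to 0.564). After thinning, the shares of cells with a Ccnd1 UMI were 7.80% at 0 h, 11.6% at 6 h and 10.2% at 12 h, with overlapping intervals. Bulk did not show this early rise, with 50.8 and 44.1 CPM at 6 and 12 h against 48.6 and 55.7 CPM in mESCs. By SMART-seq2 the mean Ccnd1 level was lower at 12 h than at 0 h. The low point fell at 36 h in single cells as in bulk, where 20 of 334 cells held a Ccnd1 UMI, and no cell held both Ccnd1 and Ccnd2. At 72 h, 47 of 235 cells held UMIs of both genes, 22 of Ccnd1 alone, 95 of Ccnd2 alone and 71 of neither. At 96 h the numbers were 26, 15, 46 and 50 of 137 cells. Cells at both times thus fell into all 4 classes, and a cell without a UMI may still hold the transcript at this depth. Ccnd3 was at 0.775 at 0 h, 2.11 at 6 h, 2.67 at 12 h and 1.75 at 24 h, and between 0.718 and 1.47 from 36 h on, which placed its highest level at 12 h.

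Ccne1 was at 0.138 UMIs per 10000 at 0 h (interval 0.0901 to 0.202), between 0.901 and 1.17 at every time from 6 to 72 h, and at 0.482 at 96 h. All later times were above 0 h, and their intervals did not overlap its own. Ccne2 went from 0.069 at 0 h to 0.405 at 72 h, with 0.248 at 96 h. Cdk6 was not seen in any cell at 24, 48, 60 and 72 h, which at 24 h, with 0 of 290 cells, leaves a Clopper-Pearson upper bound of 1.26% on the share of cells with a UMI, and was at most 0.10 elsewhere. Cdkn1a was at 1.78 at 0 h, 0.451 at 6 h, 0.370 at 12 h and 0.0783 at 24 h, then 0.274, 0.425, 0.378 and 0.642 up to 72 h and 1.33 at 96 h. The share of cells with a Cdkn1a UMI was 47.5% at 0 h, 4.14% at 24 h and 32.8% at 96 h, or 27%, 2.76% and 19% after thinning. The p21 gene was therefore lowest at 24 h in bulk and in single cells. Cdkn1b lay between 0.115 and 0.227 at all times, with no order beyond its intervals.

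Myc was at 0.0106 UMIs per 10000 at 0 h, 0.224 at 6 h, 0.454 at 12 h, 0.242 at 24 h and 0.422 at 36 h. At 48 h it was at 0.0250, on 4 UMIs in 277 cells, and at 60, 72 and 96 h at 0.215, 0.535 and 0.179. The 48 h value was the lowest after 0 h and stood apart from its neighbours in time, whereas in bulk the level was 11.5 CPM at 36 h and 13.8 at 48 h. Mycn was at 0.525 at 0 h, 0.0718 at 24 h, 0.143 at 36 h, 0.281 at 48 h, 0.451 at 72 h and 1.68 at 96 h. Mycn was lowest at 24 h here and at 36 h in bulk, and highest at 96 h in both, where 38% of single cells held a UMI.

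SMART-seq2 reads whole transcripts, and its values are given per transcript length (RPKM), so levels of different genes may be compared here. Between 82 and 89 cells were measured at 0, 12, 24 and 48 h, and all cells were brought to 1 common total, the median of the mESCs. Read depth cannot be seen in these values, and its part in the shares of cells was not tested. By mean level in mESCs, the order was Ccne1 with 201 RPKM, Cdkn1a with 161, Ccnd3 with 135, Mycn with 71.5, Ccnd1 with 46.9, Myc with 20.5, Cdk6 with 18.9, Cdkn1b with 17.7, Ccne2 with 15.9 and Ccnd2 with 2.45. Neighbours in this order overlapped in their spread between cells. The middle cells, from the lower to the upper quartile, spanned 92.1 to 285 RPKM for Ccne1, 92.3 to 203 for Cdkn1a and 78.1 to 182 for Ccnd3. Since each time was 1 culture, this order has no replicate check.

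Ccnd1 and Ccnd2 went apart in these cells before 48 h. Ccnd1 had means of 46.9, 34.8, 26.2 and 23.3 RPKM at 0, 12, 24 and 48 h, and the share of cells above 1 RPKM was 98.8%, 90.7%, 77.5% and 57.3%. Ccnd2 had means of 2.45, 8.44, 8.61 and 20.5 RPKM, with shares of 6.10%, 24.4%, 22.5% and 32.9%. The Ccnd2 interval at 0 h, 2.01 to 13.7%, lay under those of 12 h (15.8 to 34.9%) and 24 h (14.3 to 32.6%). These intervals count cells of 1 culture per time and do not cover the spread between cultures, so the early step was not tested. At 48 h the highest cell held 318 RPKM of Ccnd2 while the median cell was listed at 0. Ccnd3 stayed above 1 RPKM in 90.2% to 98.8% of cells, with its highest mean, 184 RPKM, at 12 h. All 82 mESCs held at least 1 of the 3 D-type cyclins above 1 RPKM, and 75 held exactly 2 of them. At 48 h, 4 of 82 cells held none, 27 held 1, 32 held 2 and 19 held all 3.

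Cdkn1a was above 1 RPKM in every mESC, with means of 161, 46.7, 41.6 and 78.3 RPKM at the 4 times. Mycn had means of 71.5, 33.3, 29.5 and 23.3 RPKM and shares of 97.6%, 67.4%, 60.7% and 42.7%. Myc had means of 20.5, 40.1, 39.6 and 12.8 RPKM and shares of 50.0%, 72.1%, 61.8% and 34.1%. The opposite early courses of Myc and Mycn were thus found in all 3 assays. Both genes were above 1 RPKM in 40 of 82 cells at 0 h and in 17 of 82 at 48 h, when 36 cells held neither. The share of cells above 1 RPKM of Cdk6 went from 62.2% at 0 h to 28% at 48 h. Ccne1 differed between the assays: its means were 201, 223, 160 and 185 RPKM, with no low level at 0 h of the kind seen by SCRB-seq.

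**Figure D2:**
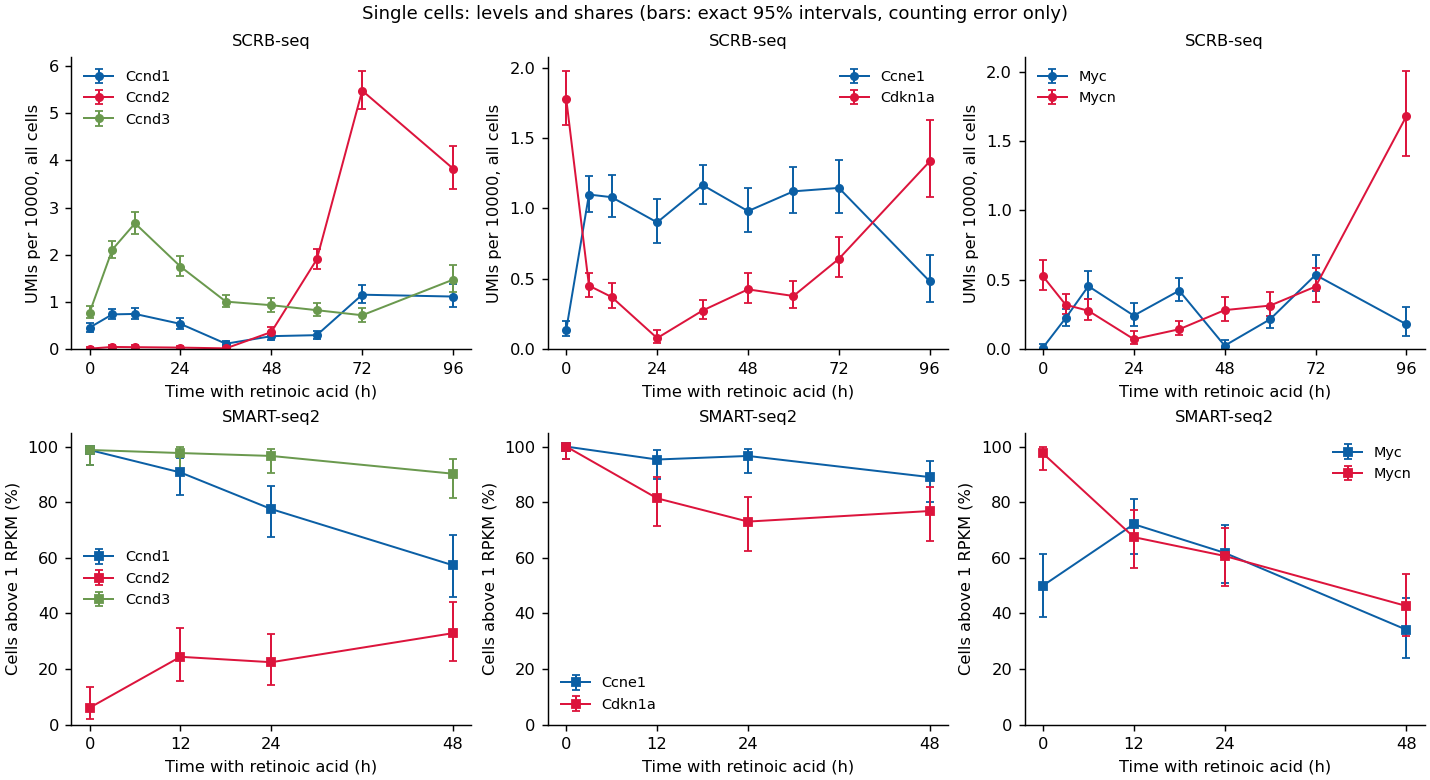
Upper panels show SCRB-seq levels (UMIs per 10000 over all cells of a time) and lower panels the share of SMART-seq2 cells above 1 RPKM (%), against hours with RA. Points are 1 culture each and bars are exact 95% intervals for counting error only. By SCRB-seq, Ccnd2 reaches 5.48 at 72 h and Cdkn1a goes from 1.78 at 0 h to 0.0783 at 24 h, and by SMART-seq2 Ccnd1 goes from 98.8% to 57.3% of cells.

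The lineages were compared in the sorted populations, the only RA samples with 2 libraries. Ccnd2 was at 524 and 404 CPM in ectoderm-like cells, 36.1 and 78.4 CPM in XEN-like cells and 0.87 and 0.44 CPM in mESCs. The 3 groups did not overlap. Its log2 fold change was 9.02 (SE 0.61, adjusted p 8.85e-06) for ectoderm-like cells against mESCs and 6.12 (SE 0.64, adjusted p 0.000102) for XEN-like cells against mESCs, by edgeR's quasi-likelihood test over all 8947 genes tested. With 3 UMIs in mESCs, the size of both changes depends on the prior count of the fit. Directly between the lineages, Ccnd2 was lower in XEN-like cells by a log2 fold change of -2.91 (SE 0.39, adjusted p 0.00137).

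Ccnd1 lay on opposite sides of mESCs in the 2 lineages. It was at 95.6 and 136 CPM in ectoderm-like cells and at 7.11 and 2.73 CPM in XEN-like cells, against 48.6 and 55.7 CPM in mESCs, again without overlap. Against mESCs it fell in XEN-like cells by 3.51 on the log2 scale (SE 0.43, adjusted p 0.000235), and the value of 0.84 in ectoderm-like cells (SE 0.33, adjusted p 0.104) did not pass the threshold. The difference between the lineages was -4.35 (SE 0.43, adjusted p 0.000536). Without the second ectoderm-like library, with its XEN markers, it was -3.95. Ccnd3 was at 24.5 and 26.5 CPM in ectoderm-like and 29.5 and 30.1 CPM in XEN-like cells, and passed no test. XEN-like cells thus held Ccnd2 and Ccnd3 with little Ccnd1, which made up 9.79% and 2.46% of their D-type cyclin UMIs.

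Ccne2 was at 50.6 and 38.1 CPM in ectoderm-like and 35 and 37.4 CPM in XEN-like cells against 10.1 and 8.71 CPM in mESCs. It was higher than in mESCs in both, with log2 fold changes of 1.92 (SE 0.34, adjusted p 0.00239) and 1.73 (SE 0.35, adjusted p 0.00388), while the lineages differed by -0.19 (SE 0.31, adjusted p 0.764). Ccne1 was at 36.1 and 20.0 CPM in ectoderm-like and 19.8 and 15.5 CPM in XEN-like cells, inside or near the mESC range, and passed no test. Cdkn1a was at 86.1 and 131 CPM in ectoderm-like cells and 43.2 and 73.8 CPM in XEN-like cells. The XEN-like libraries lay under all mESC and ectoderm-like ones, but the log2 fold changes of -0.93 against mESCs (SE 0.39, adjusted p 0.111) and -0.79 against ectoderm-like cells (SE 0.39, adjusted p 0.224) did not pass. Cdkn1b was between 5.56 and 9.11 CPM in all 4 sorted libraries and passed no test.

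Of the Myc genes, Mycn was higher in XEN-like cells than in mESCs, and Myc was lower in XEN-like than in ectoderm-like cells, and both calls depended on single libraries. Mycn was at 58.4 and 52.9 CPM in XEN-like cells, 20.0 and 34.9 in ectoderm-like cells and 17.1 and 19.2 in mESCs, so that both XEN-like libraries were above the other 4. Against mESCs its log2 fold change in XEN-like cells was 1.41 (SE 0.36, adjusted p 0.0154). The call was lost without the first mESC library (1.28, adjusted p 0.0660), without the first XEN-like library (1.48, adjusted p 0.0520) and without the second (1.37, adjusted p 0.0595). Against ectoderm-like cells the value was 1.12 (SE 0.36, adjusted p 0.0635), and without the second ectoderm-like library, with its XEN markers, it was 1.69 (adjusted p 0.0450). Myc was at 33.3 and 16.2 CPM in ectoderm-like and 3.56 and 7.29 CPM in XEN-like cells, against 10.1 and 5.22 CPM in mESCs. It was lower in XEN-like than in ectoderm-like cells by a log2 fold change of -2.17 (SE 0.56, adjusted p 0.0262). This call was lost with DESeq2 (-2.05, adjusted p 0.115), when the first ectoderm-like library was left out (-1.57, adjusted p 0.304) and when the first XEN-like library was (-1.5, adjusted p 0.216). Neither lineage differed from mESCs in Myc beyond the threshold, with 1.38 (SE 0.49, adjusted p 0.0743) for ectoderm-like and -0.79 (SE 0.60, adjusted p 0.378) for XEN-like cells.

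Of the 9 members tested, ectoderm-like cells held 2 at a higher level than mESCs, against 9.85% of all genes, and 0 at a lower level, against 9.28%. In XEN-like cells 3 were higher than in mESCs, against 12.3%, and 1 was lower, against 10.5%. Between the lineages, 0 were higher in XEN-like cells, against 6.99%, and 3 were lower, against 5.74%. Ccnd2, 1 of the higher members in both populations, held 2 and 1 UMIs in the mESC libraries. It passed the filter on low counts only through the sorted libraries, where it was high. These comparisons share libraries, the mESC pair among them. The genes of the DNA replication machinery and mitosis that mark cycling cells summed to 1775 and 1688 CPM in XEN-like cells, 2526 and 2128 CPM in ectoderm-like cells and 2498 and 1989 CPM in mESCs. Of 11 such markers, 5 were lower in XEN-like cells than in mESCs, all of them Mcm genes of DNA replication, and none in ectoderm-like cells. No marker of mitosis was called in either population against mESCs. Their part in the members' differences was not tested.

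**Figure D3:**
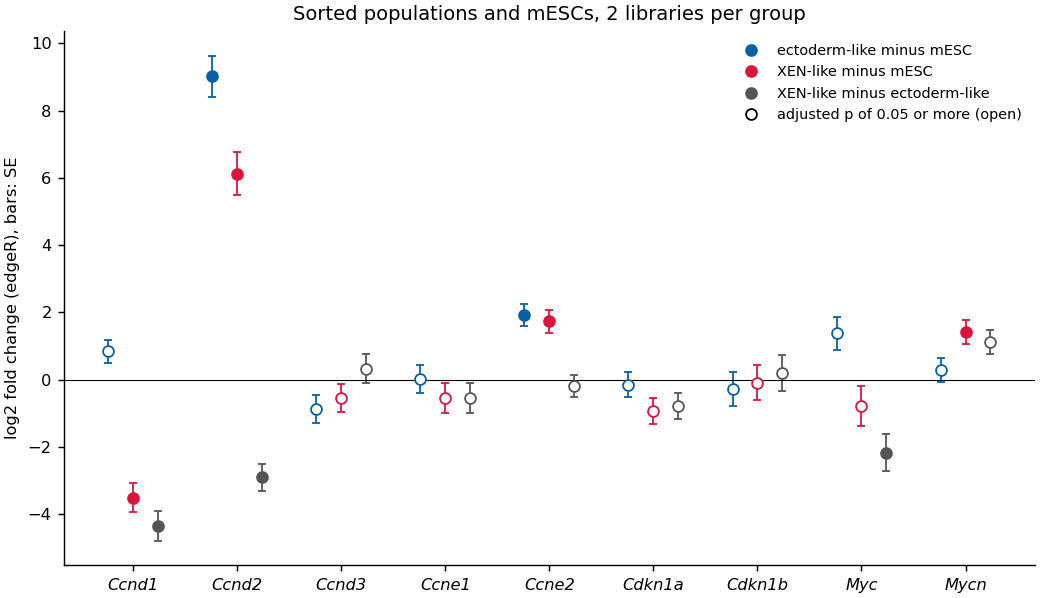
Log2 fold changes (vertical axis) of the 9 tested genes between mESCs and the sorted populations, with 2 libraries per group. Bars are standard errors and filled points passed an adjusted p of 0.05 in edgeR's test. Ccnd1 lies at -3.51 for XEN-like cells and at 0.84, open, for ectoderm-like cells, and Ccnd2 at 6.12 and 9.02.

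Other genes of the pathway were counted from fixed lists. Of 23 further genes of the G1/S transition, 17 were tested. Against mESCs, 3 were higher in the ectoderm-like population and 0 lower: Cdkn1c, the third Cip/Kip inhibitor, with a log2 fold change of 4.29 (SE 0.49, adjusted p 0.000172), Tfdp2, a dimer partner of E2F factors, with 1.22 (adjusted p 0.0389), and Skp2, which targets p27 for degradation, with 1.15 (adjusted p 0.0224). In XEN-like cells only Cks1b, a cofactor of Skp2, was called, with 0.75 (SE 0.25, adjusted p 0.0486). Cdkn1c (-3.24, adjusted p 0.00178), Tfdp2 (-1.94, adjusted p 0.00979) and Cdk4 (-0.98, adjusted p 0.0326) were lower in XEN-like than in ectoderm-like cells. The list's median was 0.36, 0.27 and -0.69 in the 3 comparisons, where that of all genes was 0.05, -0.06 and -0.06. Of 10 further genes of the wider Myc network, 7 were tested, and Mlx alone was called. It was lower in ectoderm-like cells than in mESCs (-1.09, adjusted p 0.0458) and higher in XEN-like than in ectoderm-like cells (1.45, adjusted p 0.0188). Of 12 known Myc targets in ribosome biogenesis and other biosynthesis, 0 were called in ectoderm-like cells. In XEN-like cells Nop56 (-0.88, adjusted p 0.0313) and Npm1 (-0.76, adjusted p 0.0314), which serve ribosome assembly, were lower than in mESCs, and Polr1b, a subunit of RNA polymerase I, was lower than in ectoderm-like cells (-1.34, adjusted p 0.0400). The medians of these targets were -0.26, -0.47 and -0.24.

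Single cells at 96 h were clustered on 827 variable genes from which the members had been removed. The first of 2 clusters, of 68 cells, held all 11 XEN markers at a higher level than the second, of 69 cells, which held all 11 ectoderm markers at a higher level. The XEN-like cluster also had Dppa5a, a pluripotency gene, among its 10 leading genes, and XEN markers summed to 79.5 UMIs per 10000 in the ectoderm-like cluster against 192 in the other. Ectoderm markers summed to 26.4 and 11.8, so the name ectoderm-like is relative to the other cluster and its cells may be mixed. The ectoderm-like cluster held 1.43 UMIs of Ccnd1 per 10000 and the XEN-like cluster 0.771, a ratio of 1.86 (counting interval 1.15 to 3.07). Ccnd2 was at 4.99 and 2.57, a ratio of 1.94 (interval 1.5 to 2.52), and Ccnd3 at 1.88 and 1.03, a ratio of 1.83 (interval 1.21 to 2.82). Ccnd1 and Ccnd2 were higher in the ectoderm-like cluster, by less than they differed between the sorted populations. For Ccnd3 no direction is given. Its interval included 1 with clustering on log2 values, and the sorted populations had the opposite order, without passing the test. Ccne1 was at 0.265 and 0.714, a ratio of 0.372 (interval 0.159 to 0.801), on 10 UMIs in 8 cells and 25 UMIs in 9 cells. After thinning, the shares of cells with a Ccne1 UMI were in the opposite order, 8.7% and 5.88%, and with clustering on log2 values the ratio was 0.471 with an interval of 0.174 to 1.1, so no direction is given for it. Mycn, at 1.67 and 1.69, and Cdkn1a, at 1.27 and 1.40, were close in both clusters, with intervals of the ratio of 0.685 to 1.44 and 0.599 to 1.38. Clustering on log2 values placed 110 of the 137 cells alike and left 38.7 UMIs per 10000 of XEN markers in the ectoderm-like cluster, with ratios of 2.48 for Ccnd1, 2.11 for Ccnd2 and 1.42 for Ccnd3 (interval 0.947 to 2.12). Clusters were made from the same cells, so these ratios carry no test.

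Among PDGFRA- cells binned by CD24 staining, Ccnd1 and Ccnd2 were higher where CD24 was higher. At 48 h, Ccnd2 was at 5.35, 8.57, 14.1 and 42.3 CPM in Q1, Q2, Q3 and Q4, and Ccnd1 at 8.03, 11.4, 15.0 and 18.9 CPM. Both genes thus followed the bins from low to high CD24. The Ccnd2 ratio of Q4 to Q1 was 7.91 (interval 3.79 to 19.1), and for Ccnd1 it was 2.36 (interval 1.17 to 5.06) on 30 and 12 UMIs. Ccnd3 was at 24.7, 31.4, 47 and 32.2 CPM, with no such order. Cdkn1a was at 36.8, 56.4, 47.9 and 65.7 CPM, not in bin order but with a ratio of Q4 to Q1 of 1.79 (interval 1.28 to 2.52). Ccne1, Ccne2, Myc and Mycn had intervals of the ratio that included 1. Of 3 members past 50 UMIs, 1 was called higher, against 2.10% of all genes, and 0 lower, against 3.00%. The member called, Ccnd2, passed the minimum only through Q4, with 67 UMIs against 8 in Q1. Cd24a, the gene of the sorted protein, was at 19.4, 35.7, 60.2 and 127 CPM in these bins, and the 4 libraries had less Ccnd1 than the unsorted 48 h culture with 27.6 CPM, a difference whose source was not tested.

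At 72 h both genes were again higher where CD24 was higher. The ratios span 3 bins here and 4 bins at 48 h, and their counting intervals overlap, so the 2 times are not ranked. Ccnd2 was at 35, 130 and 470 CPM in T1, T2 and T3, a ratio of T3 to T1 of 13.4 (interval 9.92 to 18.6). Ccnd1 was at 20.2, 52.9 and 82.1 CPM, a ratio of 4.07 (interval 2.63 to 6.50). Of 5 members past 50 UMIs these 2 were called higher, against 2.19% of all genes, and 0 lower, against 7.95%. Both passed the minimum only through T3, with 612 UMIs against 45 in T1 for Ccnd2 and 107 against 26 for Ccnd1. Ccne2 was at 33.4, 29.1 and 49.9 CPM, Cdkn1a at 70.7, 93.5 and 108, Myc at 17.9, 22.1 and 25.3 and Mycn at 14.8, 19.4 and 24.6, with ratios of 1.49, 1.53, 1.42 and 1.66. Cdkn1a, Myc and Mycn thus also rose in bin order. The interval of Cdkn1a (1.17 to 2.01) lay above 1, and those of Myc and Mycn included it. Pluripotency markers summed to 4643, 1983 and 1314 CPM and ectoderm markers to 1294, 2047 and 2492 CPM over the same bins. Ccnd1 and Ccnd2 were thus higher where ectoderm markers were higher and pluripotency markers lower, and the part of either list was not tested. Ccnd3, at 27.2, 22.1 and 23 CPM, did not share this order.

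PDGFRA+ cells at 72 h held less Ccnd1, Ccnd2 and Myc and more Mycn than the 3 PDGFRA- bins together. Ccnd1 was at 2.20 CPM, on 3 UMIs, against 51.8 CPM, a ratio of 0.0425 (interval 0.0087 to 0.126). Ccnd2 was at 28.7 against 216 CPM, a ratio of 0.133 (interval 0.0937 to 0.183), and Myc at 4.41 against 21.8 CPM, a ratio of 0.203 (interval 0.0723 to 0.461). Mycn was at 48.5 against 19.6 CPM, a ratio of 2.47 (interval 1.75 to 3.50). Cdkn1a was at 45.6 against 90.8 CPM, with a ratio of 0.502, just outside the threshold. Of 8 members past 50 UMIs, 1 was called higher, against 7.08% of all genes, and 3 lower, against 15.8%. The 3 lower ones passed the minimum only through the PDGFRA- bins. Within the PDGFRA- cells, the bin with the least CD24, T1, came closest to the PDGFRA+ library in Ccnd2 (35 CPM), but held 20.2 CPM of Ccnd1. Scaling by TMM moved the median of all genes by 0.18 on the log2 scale in this comparison.

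**Figure D4:**
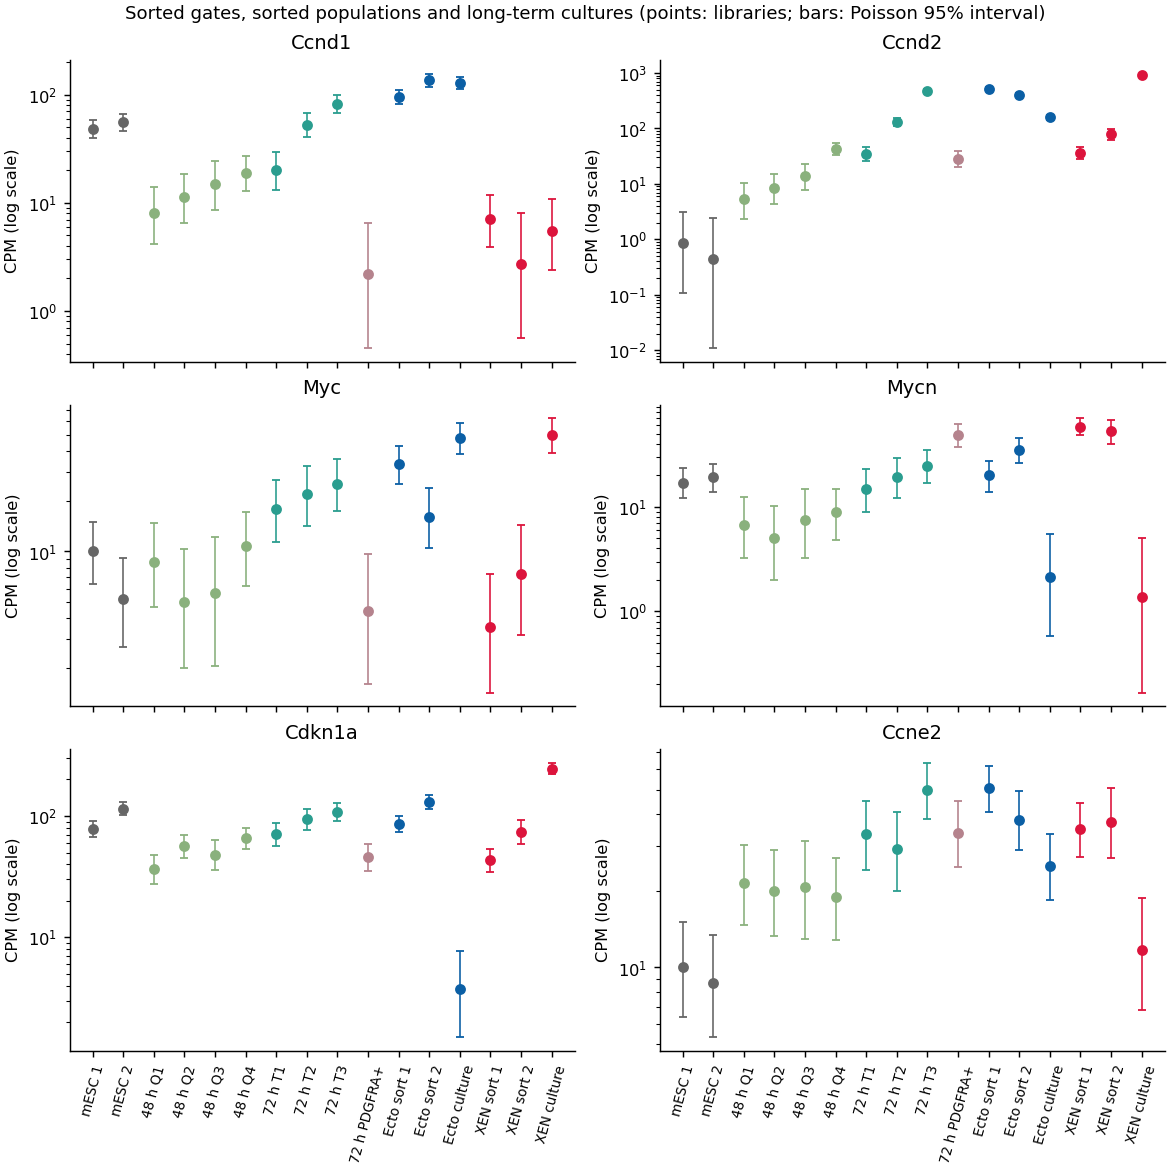
Levels of 6 genes (CPM, log axes) in mESCs, the CD24 and PDGFRA gates, the sorted populations and the cultures. Points are libraries and bars are exact Poisson 95% intervals. Ccnd1 lies at 2.20 to 7.11 CPM in PDGFRA+ and all XEN-like libraries, Ccnd2 reaches 916 CPM in the XEN-like culture, and Mycn is at 2.14 and 1.38 CPM in the cultures.

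The cultures kept the split in Ccnd1 and not that in Ccnd2. Ccnd1 was at 127 CPM in the ectoderm-like culture, 1.11 times the sorted cells (interval 0.943 to 1.31), and at 5.52 CPM in the XEN-like culture, 0.995 times the sorted cells (interval 0.372 to 2.43). Ccnd2 was at 158 CPM in the ectoderm-like culture, 0.337 times the sorted cells (interval 0.297 to 0.382). In the XEN-like culture it was at 916 CPM, the highest level of any member in any bulk library, and 17.9 times the sorted cells (interval 15.2 to 21.2). Ccnd2 thus made up 97.8% of D-type cyclin UMIs in the XEN-like culture and 49.7% in the ectoderm-like one. The order of the lineages in Ccnd2 was opposite in culture, with 5.80 times as much in XEN-like cells (interval 5.11 to 6.60).

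The inhibitor p21 and the Myc genes differed further. Cdkn1a was at 3.75 CPM in the ectoderm-like culture, on 7 UMIs, 0.0351 times the sorted cells (interval 0.0140 to 0.0731). In the XEN-like culture it was at 246 CPM, 4.54 times the sorted cells (interval 3.76 to 5.49), so that the cultures marked the lowest and the highest level of Cdkn1a among all 25 libraries. Cdkn1b was at 22.5 CPM in the ectoderm-like culture, the highest of all libraries, and at 9.66 CPM in the XEN-like one. Mycn was at 2.14 CPM and 1.38 CPM, on 4 and 2 UMIs, that is 0.0796 times (interval 0.0212 to 0.211) and 0.0245 times (interval 0.0029 to 0.0897) the sorted cells. Myc was at 47.6 and 49.7 CPM, 1.88 times the sorted ectoderm-like cells (interval 1.38 to 2.56) and 10.2 times the sorted XEN-like cells (interval 5.77 to 19.1). Both cultures therefore held more Myc than Mycn UMIs, with Myc making up 95.7% and 97.3% of their sum, against 62.5% and 31.6% in the sorted ectoderm-like and 5.74% and 12.1% in the sorted XEN-like libraries.

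The ectoderm-like culture held 12.3 CPM of Ccne1 and 25.2 CPM of Ccne2, and the XEN-like culture 3.45 and 11.7 CPM. For Ccne1 these were the lowest levels of all libraries. Against the sorted cells, 0 of 8 members past 50 UMIs were called higher in the ectoderm-like culture, against 13.7% of all genes, and 4 lower, Ccnd2, Ccne1, Cdkn1a and Mycn, against 14.4%. In the XEN-like culture, 3 of 7 were higher, Ccnd2, Cdkn1a and Myc, against 17.2%, and 3 lower, Ccne1, Ccne2 and Mycn, against 21.8%. Ccne1 and Mycn passed the minimum only through the sorted cells in both comparisons. So did Cdkn1a in the ectoderm-like and Ccne2 in the XEN-like comparison, while Myc passed it there only through the culture. Between the cultures, 2 of 5 were higher in XEN-like cells, Ccnd2 and Cdkn1a, against 19.5%, and 2 lower, Ccnd1 and Ccnd3, against 24.9%. Of these, only Ccnd2 reached the minimum in both cultures. Levels in the ectoderm-like culture depended on the scale: relative to Gapdh, the median of all genes there moved by 0.87 on the log2 scale. Then 3 members were higher, Ccnd1, Ccnd3 and Myc, and 2 lower, Cdkn1a and Mycn. Markers of cycling cells summed to 476 CPM in the XEN-like culture, 1664 CPM in the ectoderm-like one and 1688 to 2526 CPM in the sorted libraries. Markers of the lineages moved in the cultures as well. The XEN-like culture held 421 CPM of Cd24a, where the sorted XEN-like libraries held 9.14 and 14.6 CPM, and its ectoderm markers summed to 1552 CPM against 611 and 323 CPM. In the ectoderm-like culture Cd24a was at 18.7 CPM, against 268 and 388 CPM in the sorted libraries, XEN markers summed to 2235 CPM against 485 and 1779 CPM, and ectoderm markers to 1653 CPM against 3270 and 2803 CPM. The part of these markers in the members' differences was not tested. With 1 library per culture, none of this has a replicate check, and the part of the growth factors, time and manner of growth cannot be told apart.

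Across all 25 bulk libraries, the genes most like a member were sought among 6178 genes, by the Pearson correlation of log2(CPM + 1). For Cdkn1a they were Ccng1, like p21 a known target of p53, with r = 0.79, Cxadr (0.78) and Atp1b3 (0.78). For Ccnd2 they were Igfbp5, Tmed4 and Bmi1 (0.89 to 0.90), for Ccnd1 Atad5, Hnrnpa0 and Rab34 (0.85 to 0.86), for Myc Timm10b, Arhgef2 and Cenpb (0.81 to 0.82) and for Mycn Zfp280b, A730098P11Rik and Pop4 (0.83 to 0.85). Among the members themselves, Ccnd2 was closest to Ccne2 (0.68) and to Myc (0.61), and Ccnd1 to Myc (0.58), while Myc and Mycn were at -0.31. The libraries share culture, depth and lineage, so these values describe the samples.

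Printed here are the promoters of Cdkn1a and Mycn, the only members with a match to the p53 or the E2F motif given below. Both genes lay under mESCs between 12 and 48 h in bulk. So did Cdk6, which has an entry and matched neither motif. Of the 10 members, 6 had an entry in the RefSeq promoter table (GRCm38.p6). The 250 bases before the start were searched on both strands for TTTGGCGC (E2F), CACGTG (E-box), CATGNNNNNNCATG (p53) and GGGCGG (GC box), none of whose matches overlapped in the sequences printed, and capitals mark the match of the motif named. Cdkn1a, at chr17:29090729-29090978 on the plus strand, held 1 match to the p53 motif, 48 bases before the start, a motif found in 0.49% of 32851 entries. The second Cdkn1a entry and that of Ccng1 held none.
Cdkn1a: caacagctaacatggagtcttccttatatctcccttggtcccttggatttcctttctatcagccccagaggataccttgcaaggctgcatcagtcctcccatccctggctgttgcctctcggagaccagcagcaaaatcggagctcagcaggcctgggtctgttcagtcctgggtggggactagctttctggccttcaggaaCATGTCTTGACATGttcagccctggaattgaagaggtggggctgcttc
Mycn, at chr12:12941837-12942086 on the minus strand, held 2 matches to the E2F motif, 183 and 168 bases before the start, a motif found in 0.417% of entries.
Mycn: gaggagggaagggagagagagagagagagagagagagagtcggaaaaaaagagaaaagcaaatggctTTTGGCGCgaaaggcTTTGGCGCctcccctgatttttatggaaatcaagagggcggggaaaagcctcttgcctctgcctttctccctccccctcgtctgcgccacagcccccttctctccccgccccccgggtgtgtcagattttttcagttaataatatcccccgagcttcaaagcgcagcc
No other member entry matched either motif. CACGTG was matched in Cdk6 alone and occurs in 6.02% of entries, and GGGCGG, which occurs in 32.7%, was matched in 6 of the 8 member entries. A match describes the letters only.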

How the data were processed

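The deposited bulk and SCRB-seq values are UMI counts per gene made by the authors with BWA 0.7.4, and the deposited SMART-seq2 values are RPKM made by the authors with TopHat and Cuffnorm, both on mm10 (names and build per the submitters' processing notes, their use per the study's methods). Cells were sorted singly into wells, and no doublet caller was run. Text in place of a number left 2 genes out of the bulk table, and 10206 SMART-seq2 text values, all under 1 RPKM and none of a member, were read as 0.

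The 6 mESC and sorted libraries were tested with edgeR 4.0.16 (TMM, filterByExpr, quasi-likelihood test, Benjamini-Hochberg adjustment over 8947 genes), in R 4.3.3. Between mESCs and each population, and between populations, 1 joint fit was used, and an exact permutation test of 2 against 2 libraries cannot go below p = 0.333. Conditions with 1 library were compared as ratios of CPM with exact conditional 95% intervals and without a test, and called at a ratio of at least 2 or at most 0.5 where the larger side held 50 UMIs. For ratios, the mESC level was the mean CPM of the pair, and the sorted pairs and the 3 PDGFRA- bins were summed. The intervals used summed UMIs for all of these groups. SCRB-seq counts were summed over the cells of a time, and cells at 96 h were grouped by k-means. Single libraries and cells were handled in Python 3.11.15 (pandas 2.3.3, NumPy 2.4.6, SciPy 1.17.1) and drawn with matplotlib 3.10.9, and the tests were tried on simulated data. The text names all 10 members, of each fixed gene list at most the 4 called genes with the largest change, and the 3 genes most like a member. Members and lists were chosen with earlier results of these data known. Alternatives were DESeq2 1.42.0, RLE scaling, no filter on low counts, a fit of the compared groups alone, a replicate block, TMM scaling or Gapdh for single libraries, other cell minimums and thresholds, and leaving out each replicate.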

Additional observations from a re-analysis of the deposited data

Results flagged for a closer look

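The change from mESCs differed between the XEN-like and the ectoderm-like population for 3 of the 9 members tested, by edgeR's quasi-likelihood test of the difference itself, where 6.99% of all genes were called higher and 5.74% lower in XEN-like cells. On the log2 scale the XEN-like change minus the ectoderm-like change was -4.35 for Ccnd1 (SE 0.43, adjusted p 0.000536), where all XEN-like libraries lay under and all ectoderm-like libraries above both mESC libraries. For Ccnd2 it was -2.91 (SE 0.39, adjusted p 0.00137), with both populations above mESCs. For Myc it was -2.17 (SE 0.56, adjusted p 0.0262), a call that DESeq2 did not make (adjusted p 0.115) and that was lost when the first library of either population was left out.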

How the results depend on the processing

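Of the members' calls in the sorted populations, those of Ccnd1, Ccnd2 and Ccne2 held under every alternative run, and those of Mycn (7 of 10 alternatives) and Myc (8 of 11) did not. DESeq2 called 1095 genes between ectoderm-like cells and mESCs in place of 1711, and 709 between the lineages in place of 1139. The cause was not tested. Leaving out 1 library gave 876 to 1750, 1267 to 1962 and 296 to 1371 genes called in the ectoderm-like, XEN-like and lineage comparisons, and 2 to 3, 3 to 4 and 2 to 4 members. At 6 h, leaving out an mESC library gave 0 to 2 members higher and 0 to 1 lower, and at 36 h 0 to 1 higher.

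The sorted replicates share numbers only (correlation of the replicate differences 0.33 over 2 pairs). With the replicate number as a block, 2620 genes and 5 members were called between the lineages, Cdkn1a (-0.81, adjusted p 0.00459) and Mycn (1.17, adjusted p 0.000729) in addition. No paired analysis was possible because the first mESC library carries no number for the comparisons with mESCs. TMM scaling gave 1 member higher at 6 h in place of 2. Relative to Gapdh, 1 member was higher at 36 h in place of 0, and in the ectoderm-like culture 3 were higher in place of 0 and 2 lower in place of 4.

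Signs turned only for changes that passed no test. Against mESCs in ectoderm-like cells, Ccne1 was -0.0094 with RLE scaling and -0.026 with DESeq2, and leaving out libraries gave -0.48 to 0.74 for Ccne1, -0.54 to 0.20 for Cdkn1a, -0.65 to 0.085 for Cdkn1b and -0.23 to 0.72 for Mycn. In XEN-like cells it gave -1.05 to 0.22 for Ccnd3, -1.03 to 0.19 for Ccne1 and -0.47 to 0.37 for Cdkn1b, and between the lineages -0.33 to 0.0045 for Ccne2 and -0.18 to 0.63 for Cdkn1b. Without a filter on low counts, Myc in ectoderm-like cells (1.37, adjusted p 0.0205), Cdkn1a in XEN-like cells (-0.96, adjusted p 0.0287) and Mycn between the lineages (1.11, adjusted p 0.0363) were called as well. With a factor of 3, Myc and Mycn had no start. Depth limits Cdk6, early Ccnd2 and Cdkn1b, which rest on few UMIs.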
